A study of Mus musculus with 7 samples.

Results

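The genes described here are those of melanoblasts, the neural crest cells that give rise to pigment cells, together with the receptor Kit and its ligand Kitl. They were chosen by gene symbol from a deposited table of expression values, and 8 of the 9 listed symbols (Mitf, Dct, Tyr, Pmel, Mlana, Gpnmb, Kit and Kitl) were found among 19144 symbols. The ninth, Tyrp1, was not analysed here.

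The RNA came from GFP-positive cells of mouse embryos at E10.5, sorted out of pharyngeal arches 3 to 6. All embryos carried Wnt1-Cre2, a recombinase driven by a Wnt1 transgene that is active in the neural crest, and mTmG, a reporter that turns from a red to a green fluorescent protein where the recombinase has acted. Embryos with the deletion were Wnt1-cre2; Chd7 loxp/loxp; mTmG, in which the recombinase deletes the chromatin remodeller CHD7 in the labelled cells (Chd7 deletion, libraries 1, 3 and 4), and the controls were Wnt1-cre2; Chd7 +/+; mTmG (wild type, libraries 1 to 4). The stated mothers were Chd7 loxp/loxp, a cross in which each embryo would inherit a floxed copy, so the genotype of the controls is taken as labelled. The labels give neither the sex of the embryos nor how many entered a library, and no label says whether libraries came from separate litters, so the spread behind each p-value is that between libraries and may be technical.

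Melanoblasts arise from SOX10-positive crest cells and from Schwann cell precursors. SOX10, with PAX3 and cyclic AMP signalling, switches on Mitf, and MITF with SOX10 switches on the genes of pigment synthesis, among which Dct is one of the earliest and Tyr one of the later. KIT, a receptor tyrosine kinase at the surface of melanoblasts, receives KITL, a growth factor made by surrounding mesenchyme and epithelium, and the cells need it to survive and migrate.

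Expression is given as FPKM, reads scaled for gene length and library total. Depth was read from the steps between low values and came to 27100000 to 35200000 counted reads in Chd7 deletion libraries and 28600000 to 40400000 in wild-type libraries. Chd7 itself stood at 7.5 to 7.91 FPKM in the Chd7 deletion libraries and at 13.9 to 14.6 FPKM in the wild-type libraries. The libraries split by number along a first component with 60.45% of the variance. Wild type 1 and 2 stood against 3 and 4, and Chd7 deletion 1 alone stood against deletion 3 and 4. Chd7 deletion 1 was lowest, at -26.4, beside -9.19 and -7.94 for wild type 1 and 2. Same-numbered libraries deviated together, and so did differently numbered libraries on the same side of that split. Results are also given with the replicate number as a block where that changes a call. Wild type 2 has no deletion library of its number and adds nothing to the difference in the block fit. That fit thus rests on the pairs numbered 1, 3 and 4. Rn45s, a ribosomal RNA precursor, took 4.84% to 8.68% of the FPKM sum in Chd7 deletion libraries and 4.11% to 7.15% in wild-type libraries.

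The start regions of Dct, Tyr and Mitf carry letters through which MITF and cyclic AMP signalling are known to act. These 3 are shown because they belong to the regulator and to 2 of its targets. RefSeq windows of 300 bases (250 before to 50 after the start, GRCm38.p6) were on hand for 6 of the 8 genes, and none for Pmel or Mlana. In the windows of Dct (chr14:118052197-118052496, minus strand) and Tyr (chr7:87493463-87493762, minus strand), capitals mark TCATGTG, an E-box, in either orientation. In the most downstream of the 3 Mitf windows (chr6:97991533-97991832, plus strand), the promoter known to be used in melanocytes, capitals mark the cyclic AMP response element TGACGTCA.
Dct: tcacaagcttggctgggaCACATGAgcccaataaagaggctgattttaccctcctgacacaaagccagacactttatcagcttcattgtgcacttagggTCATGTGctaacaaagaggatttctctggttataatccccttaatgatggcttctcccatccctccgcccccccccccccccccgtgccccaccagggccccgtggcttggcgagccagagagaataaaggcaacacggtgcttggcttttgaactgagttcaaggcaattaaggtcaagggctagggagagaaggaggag
Tyr: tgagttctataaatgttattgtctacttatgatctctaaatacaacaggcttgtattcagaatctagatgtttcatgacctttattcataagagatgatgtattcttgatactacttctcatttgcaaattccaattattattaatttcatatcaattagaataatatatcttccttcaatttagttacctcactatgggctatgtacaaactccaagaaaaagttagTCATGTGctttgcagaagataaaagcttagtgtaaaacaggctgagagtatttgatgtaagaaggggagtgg
Mitf: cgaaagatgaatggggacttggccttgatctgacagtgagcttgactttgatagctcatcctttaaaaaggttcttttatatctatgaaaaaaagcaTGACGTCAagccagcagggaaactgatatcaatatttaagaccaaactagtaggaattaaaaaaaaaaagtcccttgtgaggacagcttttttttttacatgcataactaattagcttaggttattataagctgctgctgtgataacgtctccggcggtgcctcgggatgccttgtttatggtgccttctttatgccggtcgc

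Both strands of all 32851 windows in the RefSeq table were searched. TCATGTG was found in 3.77% of the windows, and among the genes described here in Dct and Tyr. Dct held it in both orientations, at 151 to 145 and at 232 to 226 bases before the start, and Tyr once, at 22 to 16 bases before the start. In Tyr the E-box stands within AGTCATGTGCT, the longer element known as the M-box. These letters were taken from the Tyr window, so the match there was fixed in advance. They were found in 7 windows (0.0213%). The Dct window has no exact match, but its TCATGTG nearer the start stands within GGTCATGTGCT, which differs in the first letter alone. Every M-box also counts as a TCATGTG. TGACGTCA was found in 1.79% of the windows and, of these genes, in that Mitf window alone, at 153 to 146 bases before the start. The palindromic E-box CACGTG was found in 7.15% of the windows and in none of these genes' windows.

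A mean of 1 FPKM or more over all libraries was required for a test, and 6 of the 8 genes met it. They were among 11039 genes fitted with limma on log2(FPKM + 1) and adjusted together by Benjamini-Hochberg. Gpnmb met the requirement only through its deletion libraries, with means of 1.45 FPKM after deletion and 0.864 FPKM in the wild type. Its place in the counts below thus depends in part on its deletion values. The 8 genes were chosen with earlier results of these data known, so the shares of all genes are given for scale only. SE stands for standard error. After deletion of Chd7, 1 of the 6 rose, Dct, and none fell, where 0.408% of all genes tested rose and 0.480% fell (0.888% in either direction, split 45 to 53; with an equal sum of FPKM in each library, 83 to 64). With the replicate number as a block, Dct and Mitf rose and Kitl fell, where 1.04% of all genes rose and 2.27% fell. In replicates 3 and 4 alone, Dct and Pmel rose and Kitl fell, where 0.471% of all genes rose and 0.770% fell. All 6 had an unadjusted p below 0.05 in both fits, as did 7.38% of all genes without the block and 22.8% with it. The median log2 fold change of the 6 was 0.47, beside -0.04 for all genes tested. Chd7 deletion values lay wholly above the wild-type values for 4 of the 6 (Dct, Mitf, Kit and Gpnmb) and wholly below for Kitl, where 3.00% and 6.17% of all genes tested did so. In bulk samples, a change in the number of cells of a type and a change in RNA per cell cannot be told apart.

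**Figure D1:**
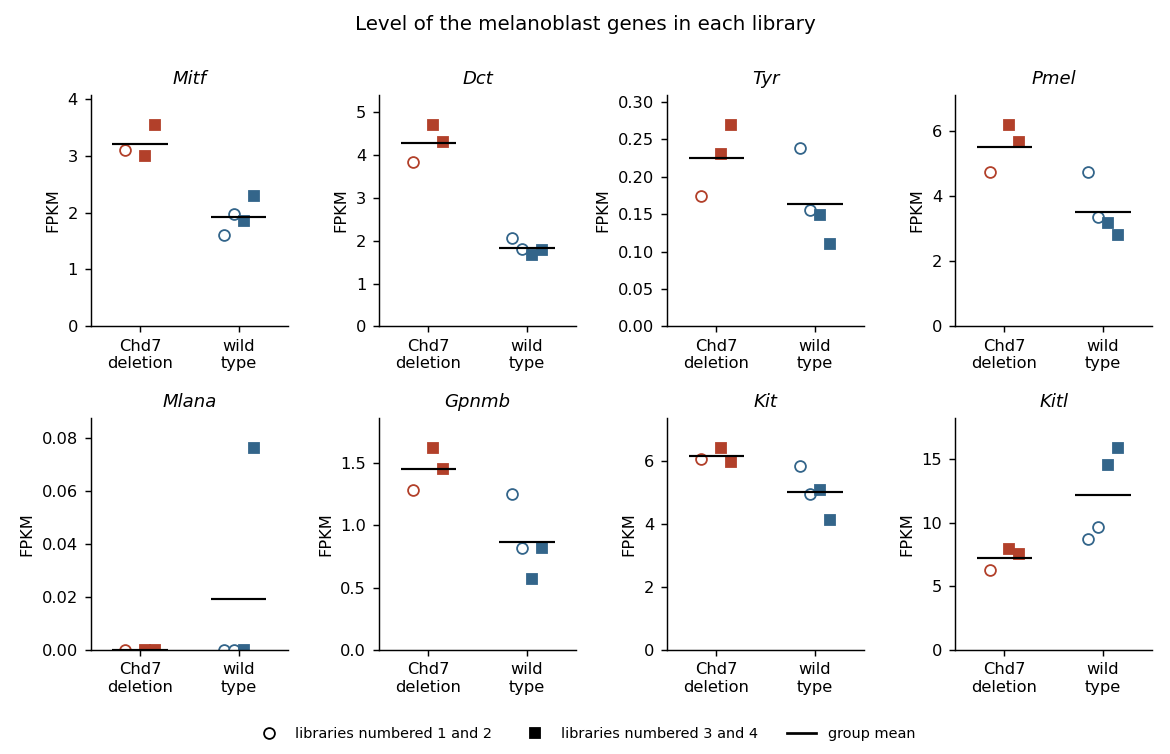
Level of each gene in FPKM (vertical axis, starting at 0, with its own scale in each panel) in the 3 Chd7 deletion and 4 wild-type libraries. Open circles are libraries numbered 1 and 2, filled squares those numbered 3 and 4, and lines the group means; the groups are apart for Mitf, Dct, Gpnmb, Kit and Kitl and overlap for Pmel and Tyr.

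Mitf, the transcription factor that specifies the melanocyte lineage, had 3.1, 2.99 and 3.54 FPKM in Chd7 deletion 1, 3 and 4, against 1.61, 1.97, 1.85 and 2.29 FPKM in wild type 1 to 4. Every deletion library was above every wild-type library. The means were 3.21 ± 0.291 FPKM after deletion and 1.93 ± 0.281 FPKM in the wild type (SD, n = 3 and 4), a ratio of 1.66. A log2 fold change of 0.53 (SE 0.096) missed the threshold (limma, adjusted p = 0.0525) and passed it with the replicate block (0.53, SE 0.068, adjusted p = 0.0172). Mitf passed in 5 of 19 alternatives, the block among them. It missed in replicates 3 and 4 alone (limma, adjusted p = 0.122) and with any 1 library left out (limma, adjusted p = 0.0528 to 0.209). Deletion over wild type was 1.92 among libraries numbered 1, 1.62 among those numbered 3 and 1.55 among those numbered 4. Inferred from the FPKM values, the reads were 496 to 564 per deletion library and 261 to 412 per wild-type library. Mitf lies on chromosome 6 from 97807052 to 98021349 and has several promoters, and a value for the whole gene does not separate the melanocyte form from the others.

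Dct, dopachrome tautomerase, an enzyme of melanin synthesis, had 3.83, 4.7 and 4.31 FPKM in Chd7 deletion 1, 3 and 4, against 2.06, 1.8, 1.67 and 1.78 FPKM in wild type 1 to 4. The groups were far apart, with every deletion library above every wild-type library. The means were 4.28 ± 0.434 FPKM after deletion and 1.83 ± 0.165 FPKM in the wild type (SD, n = 3 and 4), a ratio of 2.34. Dct rose with a log2 fold change of 0.90 (SE 0.085; limma, adjusted p = 0.0079). Among libraries numbered 1 the ratio of deletion to wild type was 1.86, below the 2.81 and 2.42 of those numbered 3 and 4. The reads inferred from the FPKM values were 264 to 344 per deletion library and 115 to 164 per wild-type library. The call was lost without Chd7 deletion 4 (adjusted p = 0.058) or without wild type 3 (adjusted p = 0.0514), with log2 fold changes of 0.89 and 0.87. Dct lies on chromosome 14 from 118012790 to 118052244, and an annotated antisense gene lies within it but shares no exon base with it.

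Tyr, tyrosinase, which catalyses the first step of melanin synthesis, was far below the filter. Its level was 0.174, 0.23 and 0.269 FPKM in Chd7 deletion 1, 3 and 4 and 0.238, 0.156, 0.149 and 0.11 FPKM in wild type 1 to 4, on 37 to 45 and 19 to 45 reads per library. The groups overlapped, where 7.39% of genes under the filter did not. Deletion over wild type was 0.732 among libraries numbered 1, 1.55 among those numbered 3 and 2.44 among those numbered 4. Exact 95% Poisson intervals, which cover counting error only, overlapped between Chd7 deletion 1 (0.123 to 0.24 FPKM) and wild type 1 (0.174 to 0.318 FPKM). They overlapped between Chd7 deletion 3 (0.168 to 0.308 FPKM) and wild type 3 (0.0988 to 0.215 FPKM) as well. They were apart between Chd7 deletion 4 (0.196 to 0.361 FPKM) and wild type 4 (0.0663 to 0.172 FPKM). Fitted without the filter on low values, Tyr had a log2 fold change of 0.07 (SE 0.043, limma adjusted p = 0.801 over 19144 genes, of which 0.324% were called, 0.151% higher after deletion and 0.172% lower).

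Pmel, the protein that forms the fibrils of the pigment granule, had 4.73, 6.18 and 5.65 FPKM in Chd7 deletion 1, 3 and 4, against 4.74, 3.35, 3.16 and 2.81 FPKM in wild type 1 to 4. Chd7 deletion 1 and wild type 1 were at nearly the same level, and the groups overlapped through these libraries. Over all libraries the log2 fold change was 0.54 (SE 0.14; limma, adjusted p = 0.217). In replicates 3 and 4 alone, 2 libraries in each group, it was 0.80 (SE 0.091; limma, adjusted p = 0.00944). Deletion over wild type was 0.997 among libraries numbered 1, 1.95 among those numbered 3 and 2.01 among those numbered 4. Pmel lies on chromosome 10 from 128704195 to 128720238 and shares 34 exon bases with Cdk2 and 105 with Dgka, both on the other strand, and whether the counting used strand is not given in the sources used here. Cdk2, a cell cycle kinase, was at 16.3 to 21.7 FPKM in deletion libraries and 18 to 23.1 FPKM in wild-type libraries (log2 fold change -0.05, limma adjusted p = 0.975).

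Mlana, a membrane protein of later pigment cells, was at 0 in all 3 deletion libraries and in wild type 1, 2 and 3, and at 0.076 FPKM in wild type 4. Gpnmb, a glycoprotein related to Pmel and found in melanoblasts and in macrophages, had 1.29, 1.62 and 1.45 FPKM in Chd7 deletion 1, 3 and 4, against 1.25, 0.816, 0.566 and 0.821 FPKM in wild type 1 to 4. Deletion libraries lay above wild-type libraries, though Chd7 deletion 1 and wild type 1 were nearly level. Its log2 fold change of 0.41 (SE 0.12) missed the threshold (limma, adjusted p = 0.315). The ratio of deletion to wild type was 1.03 among libraries numbered 1, 2.86 among those numbered 3 and 1.77 among those numbered 4. Of 14 macrophage markers none reached a mean of 1 FPKM, and their summed level was 1.86 to 4.33 FPKM in deletion libraries and 1.88 to 2.55 FPKM in wild-type libraries. The defining macrophage gene Csf1r was at 0.316 to 0.479 FPKM after deletion and 0.217 to 0.306 FPKM in the wild type, and Adgre1 at 0.0351 to 0.0857 FPKM and 0.0297 to 0.0788 FPKM. Of the 14, Csf1r alone had groups apart, as did 7.39% of genes under the filter. The part of macrophages in the Gpnmb values was not tested.

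Kit had 6.07, 6.41 and 5.98 FPKM in Chd7 deletion 1, 3 and 4, against 5.84, 4.97, 5.08 and 4.14 FPKM in wild type 1 to 4. The deletion libraries were close to each other and all above the wild type, by a small margin over wild type 1. Its log2 fold change of 0.26 (SE 0.099) missed the threshold (limma, adjusted p = 0.561). Deletion over wild type was 1.04 among libraries numbered 1, 1.26 among those numbered 3 and 1.45 among those numbered 4. Inferred reads were 838 to 1106 per deletion library and 612 to 1038 per wild-type library. Kit also marks blood progenitors, mast cells and germ cells. The 10 mast cell and blood progenitor markers in the table summed to 5.8 to 7.71 FPKM after deletion and 6.42 to 7.36 FPKM in the wild type, and Gata1 was at most 0.0163 FPKM after deletion and 0.0261 FPKM in the wild type. Ddx4, which defines germ cells, was at 0.0399 to 0.0651 FPKM after deletion and 0.0676 to 0.202 FPKM in the wild type. Its groups were apart, as for 7.39% of genes under the filter. None of the 3 mast cell and blood progenitor markers tested passed in limma, where 0.888% of all genes did. None had an unadjusted p below 0.05, where 7.38% of all genes did. The part of blood progenitors, mast cells and germ cells in the Kit values was not tested.

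Kitl lay on the other side. It had 6.26, 7.93 and 7.52 FPKM in Chd7 deletion 1, 3 and 4, against 8.75, 9.65, 14.5 and 15.9 FPKM in wild type 1 to 4. All deletion libraries were below all wild-type libraries, and the wild type split by number, with a mean of 15.2 FPKM in libraries 3 and 4 and 9.2 FPKM in libraries 1 and 2. Over all 7 libraries the log2 fold change of -0.65 (SE 0.196) missed the threshold (limma, adjusted p = 0.31). With the replicate block it was -0.74 and passed (SE 0.105; limma, adjusted p = 0.0231), as it did in replicates 3 and 4 alone, at -0.89 (SE 0.078; limma, adjusted p = 0.00347). The level in wild type over deletion was 1.4 among libraries numbered 1, 1.83 among those numbered 3 and 2.11 among those numbered 4. The means were 7.24 ± 0.87 FPKM after deletion and 12.2 ± 3.52 FPKM in the wild type (SD, n = 3 and 4).

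**Figure D2:**
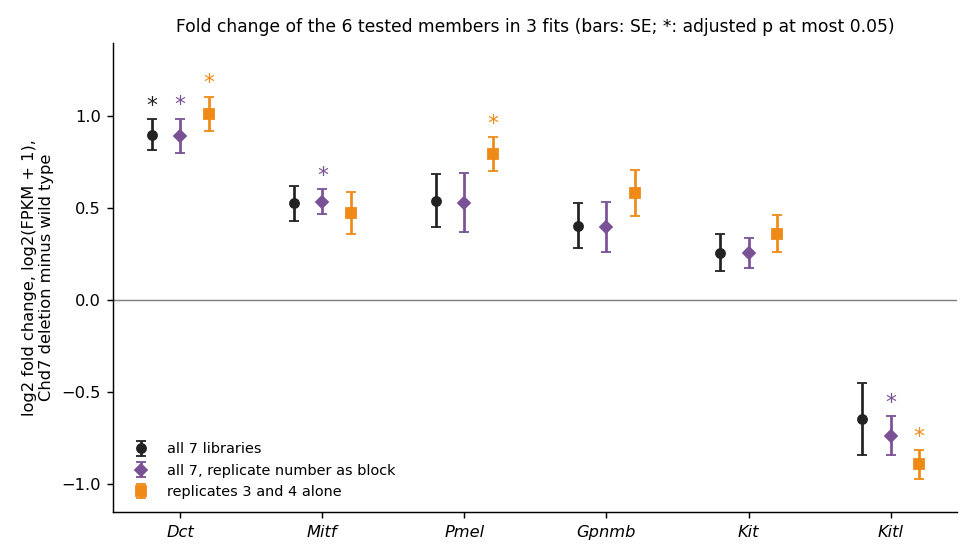
Log2 fold change (Chd7 deletion minus wild type, on log2(FPKM + 1), vertical axis) of the 6 tested genes in fits with all 7 libraries (circles), with the replicate number as a block (diamonds) and with replicates 3 and 4 alone (squares); bars are standard errors and asterisks mark an adjusted p of at most 0.05. Dct is marked in all 3 fits, Mitf in the block fit, Pmel in replicates 3 and 4 alone, and Kitl, below 0, in the block fit and in replicates 3 and 4 alone. In the block fit wild type 2, with no deletion library of its number, adds nothing to the difference.

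Within a library, the ratio of 2 genes does not depend on the library total. Kit over Kitl was 0.97, 0.808 and 0.795 in Chd7 deletion 1, 3 and 4, against 0.667, 0.514, 0.35 and 0.261 in wild type 1 to 4. Receptor and ligand were thus nearest to equal level per length in Chd7 deletion 1, and every deletion library was above every wild-type library. The mean log2 ratio, with 0.1 FPKM added, was -0.22 ± 0.157 after deletion and -1.23 ± 0.591 in the wild type (SD, n = 3 and 4). The difference of 1.01 gave p = 0.0571 in an exact permutation test, two-sided, whose smallest possible p with these libraries is 0.0286 (0.0857 adjusted over the 3 ratios tested).

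Dct over Sox10, the transcription factor gene upstream of it, was 0.118, 0.148 and 0.113 in Chd7 deletion 1, 3 and 4, against 0.107, 0.0979, 0.0952 and 0.0776 in wild type 1 to 4. Sox10 itself rose (34.1 ± 3.46 FPKM after deletion and 19.5 ± 2.38 FPKM in the wild type, SD, n = 3 and 4, limma adjusted p = 0.0193). The mean log2 ratio of Dct to Sox10 differed by 0.38 between deletion and wild type (exact permutation p = 0.0571, 0.0857 adjusted over 3). With 1 FPKM added in place of 0.1, the difference was 0.12 (exact permutation p = 0.514). For Dct over Mitf the difference was 0.47 (exact permutation p = 0.114, also 0.114 adjusted), with wild type 1, at a ratio of 1.28, among the deletion libraries at 1.24, 1.57 and 1.22, and the other wild-type libraries between 0.778 and 0.911. None of the 3 differences passed the threshold.

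**Figure D3:**
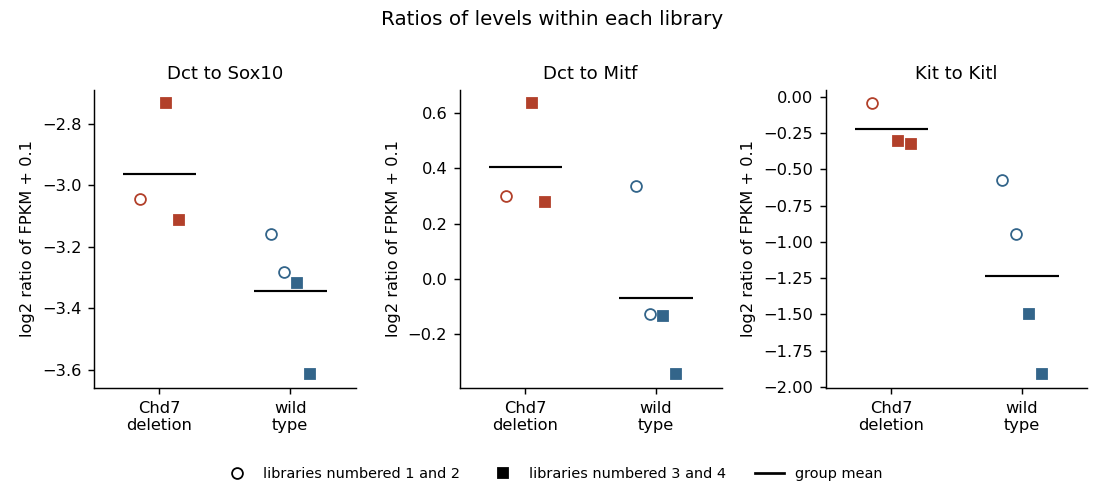
Log2 ratio of the FPKM + 0.1 of 2 genes (vertical axis, own scale in each panel) in each Chd7 deletion and wild-type library, with symbols by library number and lines for group means. Deletion libraries lie above the wild type for Dct to Sox10 and for Kit to Kitl, and wild type 1 lies among them for Dct to Mitf.

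By level per length in the wild type, Kitl was highest (8.75 to 15.9 FPKM), followed by Kit (4.14 to 5.84 FPKM) and Pmel (2.81 to 4.74 FPKM). Mitf and Dct came next with overlapping ranges of 1.61 to 2.29 FPKM and 1.67 to 2.06 FPKM, and Gpnmb, Tyr and Mlana were lowest. Kit and Pmel overlapped too, and the ranges of the other neighbours in this order were apart. After deletion, Kitl (6.26 to 7.93 FPKM) and Kit (5.98 to 6.41 FPKM) overlapped, Dct (3.83 to 4.7 FPKM) stood wholly above Mitf (2.99 to 3.54 FPKM), and Pmel (4.73 to 6.18 FPKM) overlapped with Kit and lay just above Dct. By its mean over all libraries Kitl lay above 64.4% of the genes tested and Dct above 22.2%.

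Genes around this programme were read from lists chosen with earlier results of these data known. Of 17 upstream regulators of the lineage tested, 2 rose (Sox10 and Foxd3) and none fell, where 0.408% of all genes tested rose and 0.480% fell. Their median log2 fold change was 0.11. With the replicate block 3 rose and 1, Snai2, fell, where 1.04% of all genes rose and 2.27% fell. Foxd3, a transcription factor of early crest and glial precursors that represses Mitf in chick and zebrafish, had 19.8 ± 1.25 FPKM after deletion and 12.9 ± 0.683 FPKM in the wild type (SD, n = 3 and 4, limma adjusted p = 0.0142). Pax3, which acts on the Mitf promoter with SOX10, had 4.27, 3.64 and 4.18 FPKM in Chd7 deletion 1, 3 and 4, against 3.82, 3.29, 1.66 and 1.86 FPKM in wild type 1 to 4 (limma adjusted p = 0.611). Pax3 passed with the library set, numbers 1 and 2 against 3 and 4, as a covariate (limma, adjusted p = 0.035). That fit called 720 of the 11039 genes, 169 higher and 551 lower after deletion. Snai2 fell in it (log2 fold change -0.55, limma adjusted p = 0.00652). Pax3 also passed in replicates 3 and 4 alone (log2 fold change 0.83, limma adjusted p = 0.0112), where 0.471% of all genes rose and 0.770% fell. Ednrb, the endothelin receptor of melanoblasts, was at 21.3 to 27.1 FPKM after deletion and 16.6 to 20.01 FPKM in the wild type (log2 fold change 0.40, limma adjusted p = 0.172; 0.0286 with the library set as a covariate). Its ligand gene Edn3 was at 1.04 to 1.78 FPKM after deletion and 1.51 to 1.94 FPKM in the wild type. Of the 2 tested genes of the MiT/TFE family, Mitf and Tfe3, neither passed without the block in limma. Mitf alone of the 2 had an unadjusted p below 0.05, where 7.38% of all genes did. Tfe3 was at 4.17 to 4.52 FPKM after deletion and 4.33 to 4.77 FPKM in the wild type (limma adjusted p = 0.957), while Tfeb and Tfec were below the filter.

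None of 20 Kit signalling genes passed the threshold in limma without or with the replicate block, where 0.888% and 3.32% of all genes did. At an unadjusted p below 0.05 there were 0 without the block and 6 with it, where 7.38% and 22.8% of all genes were. Their median log2 fold change was 0.01. The Src-family kinase gene Fyn, furthest from 0 in log2 fold change without the block, had 14.3 ± 0.707 FPKM after deletion and 12.4 ± 1.3 FPKM in the wild type (SD, n = 3 and 4, limma adjusted p = 0.73). Of 21 genes of melanosome biogenesis and transport none passed in limma, where 0.888% of all genes did, and their median was 0.02. At an unadjusted p below 0.05 there was 1 without the block and 4 with it, beside 7.38% and 22.8% of all genes. Ostm1, a lysosomal membrane protein gene, was the furthest from 0 without the block, at 3.5 ± 0.304 FPKM after deletion and 2.91 ± 0.287 FPKM in the wild type (limma adjusted p = 0.65), followed by Mreg, which acts in melanosome transfer, at 2.61 ± 0.161 and 2.2 ± 0.362 FPKM (limma adjusted p = 0.843). Of 6 genes linked to MITF in melanocytes, Ednrb among them, none passed in limma, and their median was -0.11. At an unadjusted p below 0.05 there was 1 of these 6 without the block and 3 with it, beside the same shares of all genes. Cdk4, a cell cycle kinase, was also among them at 187.4 ± 29.4 FPKM after deletion and 218.4 ± 17.5 FPKM in the wild type (limma adjusted p = 0.874).

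Some markers of 2 other crest populations also passed the test. Of 11 Schwann cell precursor markers tested 4 rose (Sox10, Erbb3, Foxd3 and Gas7), where 0.408% of all genes tested rose. With the replicate block 7 rose, where 1.04% of all genes did. Of the 7, Gfra3 met the filter only through its deletion libraries (means of 1.61 FPKM after deletion and 0.801 FPKM in the wild type). Its place in that count thus depends in part on its deletion values. Sox10 and Foxd3 are also the 2 upstream regulators that rose, so the lists are not separate. The summed level of the 14 listed was 176.4 to 192.7 FPKM after deletion and 125.4 to 137.3 FPKM in the wild type. Of 10 cardiac crest mesenchyme markers 4 fell (Hand2, Foxf1, Col1a1 and Col3a1), where 0.480% of all genes tested fell. With the replicate block 9 fell, where 2.27% of all genes did. The list summed to 108.1 to 153.3 FPKM after deletion and 208.6 to 276 FPKM in the wild type. Twist1, which defines it, was at 9.6 to 15.8 FPKM after deletion and 18.6 to 26.6 FPKM in the wild type. The part of these populations in the values of Mitf, Dct and Kitl was not tested. None of the tested markers of red blood cells (5), endothelium (2), pharyngeal epithelium (4) or germ cells (1, Prdm1) passed in limma. Of all genes tested, 0.888% passed. Hba-a2, a red blood cell marker, was the only 1 at an unadjusted p below 0.05, where 7.38% of all genes were. With the replicate block Prdm1 fell, where 2.27% of all genes did. In replicates 3 and 4 alone, the fit in which Pmel and Kitl passed, Hba-a2 rose (log2 fold change 1.00, limma adjusted p = 0.0121). Hba-a1, a defining red blood cell marker, did not pass there (log2 fold change 0.26, limma adjusted p = 0.714). The part of red blood cells in the Pmel and Kitl values was not tested. Red blood cell markers summed to 22.8 to 55.4 FPKM after deletion and 22.6 to 38.2 FPKM in the wild type, and pharyngeal epithelium markers to 11.6 to 17.9 FPKM and 12.8 to 16.9 FPKM. Endothelial markers summed to 3.61 to 6.97 FPKM after deletion and 4.7 to 6.73 FPKM in the wild type. Markers of the retinal pigment epithelium, none of which reached the filter, summed to 1.74 to 3.19 FPKM after deletion and 2.09 to 2.91 FPKM in the wild type. Rpe65, a defining one, was at 0 in all deletion libraries and in 3 of the 4 wild-type libraries. Groups were apart for 2 others, in opposite directions, as they were for 7.39% of genes under the filter. Rlbp1 was at 0.107 to 0.2 FPKM after deletion and 0.0396 to 0.0927 FPKM in the wild type, and Lhx2 at 0.17 to 0.285 FPKM after deletion and 0.298 to 1.25 FPKM in the wild type.

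**Figure D4:**
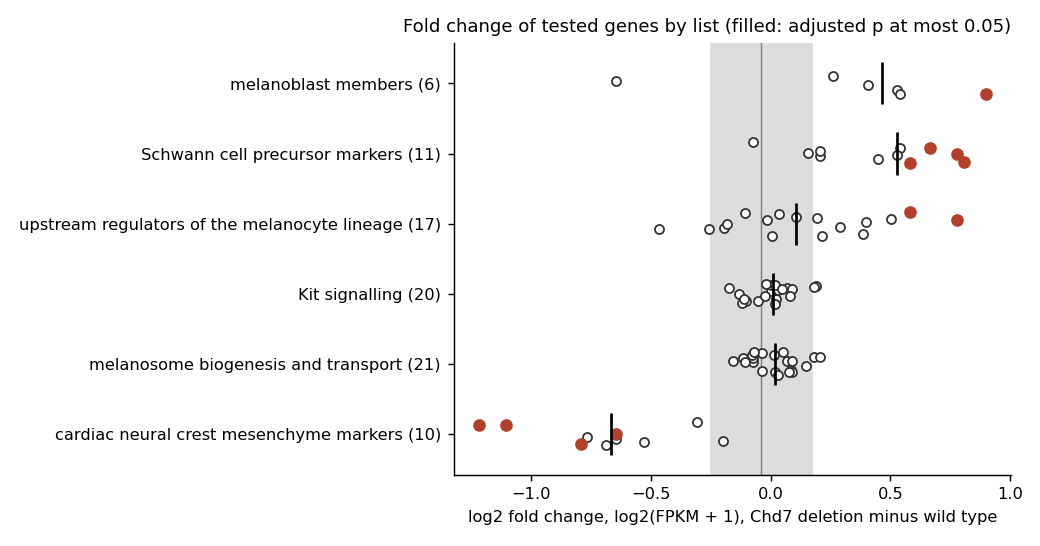
Log2 fold change (Chd7 deletion minus wild type, horizontal axis) of every tested gene in 6 lists, with the number tested in brackets; filled points passed an adjusted p of 0.05, black bars are list medians, the grey line is the median of all genes and the grey band their 5th to 95th percentile (-0.25 to 0.17). Most melanoblast genes and Schwann cell precursor markers lie right of the band and most mesenchyme markers left of it, and Kitl (log2 fold change -0.65) is the melanoblast gene at the left.

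The genes most like each member were taken by Pearson's r of log2(FPKM + 1) over the 7 libraries, as a description of libraries that share genotype and number. For Dct they were Igsf11 (0.996), Ubl3 (0.995) and Cdkn1c (0.994), of which Igsf11, a gene of a cell adhesion protein, had 4.99 ± 0.192 FPKM after deletion and 2.93 ± 0.116 FPKM in the wild type (SD, n = 3 and 4). For Mitf they were Pcdh1 (0.986), Plekhg3 (0.98) and the SoxE gene Sox8 (0.978). Kit was closest to Fyn (0.986), Trib2 (0.985) and Fam234b (0.97), and Kitl to Foxc1 (0.989), Brd3 (0.986) and BC030867 (0.984). Foxc1, a transcription factor gene of mesenchyme, had 14.7 ± 1.17 FPKM after deletion and 20.3 ± 3.32 FPKM in the wild type. For Pmel they were Fgf15 (0.985), Enox1 (0.968) and Bcas3 (0.966), and for Gpnmb Acot1 (0.959), Papss1 (0.958) and Pmel (0.941).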

How the data were processed

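FPKM was the unit of the single table the authors deposited, which held the 7 libraries as columns. HISAT2, SAMtools, Partek, Trimmomatic 0.38, bcl2fastq 2.18.0.12 and the mm10 build are named in the submitters' processing notes, with no role or order. Per the labels' protocols, ribosomal RNA was depleted and a strand-specific kit was used. Annotation, filters and the use of strand in counting are not stated there. Because FPKM is scaled to the total, more reads on a few transcripts lower the values of all others. Of 19169 rows, 25 held a date in place of a symbol and were left out.

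The limma fit (3.58.1, R 4.3.3, intensity trend) took the 11039 genes whose mean reached 1 FPKM, on log2(FPKM + 1), two-sided, at an adjusted p of 0.05. The scale understates the change of low genes. Deviations from the group means correlated at 0.704, 0.399 and 0.775 between the libraries numbered 1, 3 and 4. Each was above 0.1, and by that rule the block pairs libraries by number. Libraries of different number but the same set correlated too, at 0.592 (Chd7 deletion 1 with wild type 2), 0.377 (Chd7 deletion 4 with wild type 3) and 0.25 (Chd7 deletion 3 with wild type 4). These are above 0.1 too, so the rule cannot tell pairing by number from the split into sets. No label says what the numbers stand for.

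Relative depth was the commonest exact ratio between low values of 2 libraries, and whole reads were sought within 0.02 read. The library total is the commonest one implied by 665 single-transcript genes with whole reads (142 of them), using GENCODE M21 lengths on GRCm38; both scripts were tested on simulated data. Whether reads or fragments were counted is not stated, and Kitl gave no whole reads. All read numbers per gene are thus inferred. The gene length they imply matched a GENCODE transcript for Pmel, Tyr and Sox10, and none for Dct, Mitf, Kit or Gpnmb. Positions came from GENCODE M21 and promoter windows from RefSeq. Tables and figures used Python 3.11.15, numpy 2.4.6, pandas 2.3.3, scipy 1.17.1 and matplotlib 3.10.9.

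The members and the gene lists (upstream regulators, MiT/TFE family, Kit signalling, melanosome genes, genes linked to MITF and markers of other cells) were chosen with earlier results of these data known. Beside the members, the text names the 3 genes most like each tested member and, in each list, those past the threshold or else those with the largest change. Pax3, Edn3, Cdk2 and Dgka, the defining marker genes and the motifs were added for their known roles or positions. Snai2 was added as the upstream regulator that fell with the replicate block. Gfra3 was added as a Schwann cell precursor marker that met the filter only through its deletion libraries. Alternatives varied the pseudocount, the filter, the scaling, the variance model, the block, the library set and the libraries included.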

Additional observations from a re-analysis of the deposited data

Results flagged for a closer look

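Mlana stood at 0.076 FPKM in wild type 4 and at 0 in the other wild-type libraries, which set that library apart from its group. With the other 3 values at 0, any reads in the fourth library would set it apart, so the usual chance rate of about 1 in 20 groups does not apply. Of 13 sets of 4 wild-type values examined, no other was set apart. The number of reads behind the value could not be recovered.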

How the results depend on the processing

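Of the 8 genes, 1 was called in the fit as reported, and the number was 3 with the replicate block, with the library set (numbers 1 and 2 against 3 and 4) as covariate, with weights per library and in replicates 3 and 4 alone. It was 2 with an equal sum of FPKM or upper-quartile scaling and 0 with a minimum mean of 3 FPKM, which removes Dct, Mitf and Gpnmb (limma, 3 of 3 at an unadjusted p below 0.05). Leaving out 1 library gave 0 to 1, with 0 without Chd7 deletion 4 or wild type 3 (limma, 5 of 6 at an unadjusted p below 0.05 in each). Over all genes the count was 98, and it was 366 with the replicate block, 720 with the library set as covariate, 213 with weights per library, 156 with upper-quartile scaling, 62 with no filter and 60 with a minimum mean of 3 FPKM, and from 4 to 72 with 1 library left out. The weights per library stopped short of full convergence. No tested member turned direction in any alternative. Dct lay between 0.84 and 1.18 on the log2 scale, and Kitl between -0.89 and -0.52. The replicate block changed no call among the members other than Mitf and Kitl. The differences in log2 ratio kept their sign, from 0.26 to 0.45 for Dct to Sox10, 0.36 to 0.61 for Dct to Mitf and 0.78 to 1.23 for Kit to Kitl with 1 library left out, where the exact test cannot reach 0.05. With 1 FPKM added in place of 0.1, Dct to Sox10 was 0.12 (exact permutation p = 0.514). Tyr rests on 19 to 45 reads per library.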

Other observations

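Several genes of later pigment cells were below the filter, and a few, chosen after their values were seen, are given outside the comparison. Trpm1, a channel gene that MITF is known to switch on, had 0.32, 0.303 and 0.395 FPKM in Chd7 deletion 1, 3 and 4, against 0.178, 0.152, 0.113 and 0.184 FPKM in wild type 1 to 4. Its groups did not overlap, as for 7.39% of genes under the filter, and in the fit without the filter its adjusted p was 0.068 (limma). Rab38, a transport gene of the melanosome, lay the other way, with 0.343, 0.451 and 0.398 FPKM in Chd7 deletion 1, 3 and 4, against 0.608, 0.597, 0.57 and 0.555 FPKM in wild type 1 to 4 (limma without the filter, adjusted p = 0.174). Slc45a2, a melanosome transporter gene, was at 0.112 to 0.191 FPKM after deletion and 0.0581 to 0.139 FPKM in the wild type. Oca2, another such transporter gene, was at 0 in 6 of the 7 libraries.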
